A study of Mus musculus with 6 samples.

Results

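Glutathione S-transferases were followed in mouse liver as 10 genes named by symbol: Gsta3 and Gsta4 of the alpha class, Gstm1, Gstm3, Gstm4 and Gstm6 of the mu class, Gstp1 of the pi class, Gstk1 of the kappa class, and Gstt1 and Gstt2 of the theta class. All 10 had a probe set annotated to their symbol alone, out of 18820 genes measured, and where a gene had several such probe sets the one with the highest mean over the 6 arrays was taken. The livers came from 2-month-old mice on a C57BL6 background: 4 carried the Pcyt2+/- genotype (replicates 1 to 4) and 2 were wild type (replicates 3 and 4), with no treatment named for either group. Titles of the first group say knock-out, but its genotype field reads Pcyt2+/-, and the group is named by that field. Each mouse had its own array, liver was snap frozen before RNA extraction, and neither the sex nor the feeding state of the mice is given in the sources used here.

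Glutathione S-transferases join the thiol of glutathione to electrophilic compounds, which makes them more soluble and ready for export from the cell. In liver they handle drugs, carcinogens and the reactive aldehydes that arise when polyunsaturated lipids are oxidised. The alpha, mu, pi and theta classes are mainly cytosolic, and the kappa class resides in mitochondria and peroxisomes. Pcyt2 encodes an enzyme of the CDP-ethanolamine route to phosphatidylethanolamine, and the comparison asked which liver genes differ where it is deficient.

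Signals are log2 values, deposited by the authors after RMA (robust multi-array average) normalization. Most of the table lay in a narrow band just above the array floor: array medians were 4.40 on all 6 arrays, and 94.4% of all 28996 rows had a mean between 4 and 5. The floor is part of each signal, so a log2 difference understates the change in RNA, most of all in that band. Gsta3, Gstm1, Gstp1, Gstk1 and Gstt1 had a mean above 5 and are called the brighter members, and the other 5 lay inside the band. Pcyt2 was lower on each Pcyt2+/- array (4.604 to 4.669) than on either wild type array (4.796 and 4.887). Its log2 difference of -0.20 had an adjusted p of 0.264 by limma and did not pass. The hepatocyte genes Alb, Ttr and Apoa1 read 10.879 to 12.408 over the 6 arrays, while 1 of 65 measured markers of 9 other cell types had a mean above 5. Xist and the Y-linked genes Eif2s3y, Kdm5d and Uty all lay between 4.179 and 4.394, in the floor band, so the sex of the mice could not be read from them. In whole liver, fewer cells of a type and less RNA per cell cannot be told apart.

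None of the 10 genes passed limma at an adjusted p under 0.05, where 0 of 18820 genes (0.0%) passed. Unadjusted p was under 0.05 for 998 genes (5.3%), with 3.44% of all genes lower and 1.86% higher in Pcyt2+/-. Among the members 1 of 10, Gstt2, had such a p, on the lower side, and 0 on the higher side. The group ranges did not overlap for that same gene, 1 of 10, against 12.8% of all genes (7.17% lower and 5.67% higher). When the 792 genes with a mean above 5 were fitted alone, 69 lower and 19 higher genes had an unadjusted p under 0.05. Of the 5 brighter members, 0 did. In the fit of all genes, the counts by unadjusted p and by range were also 0 for those 5 members. There, 20.2% of the 792 had an unadjusted p under 0.05 and 20.8% had ranges that did not overlap. Those counts rest on the full set of arrays and the values as deposited. Unadjusted p was also under 0.05 for Gsta3 without Pcyt2+/- replicate 1, and for Gstp1 without Pcyt2+/- replicate 3 or with quantile normalization. Without Pcyt2+/- replicate 1, 664 of 18820 genes were lower and 345 higher with such a p. The same counts were 634 and 388 without Pcyt2+/- replicate 3, and 492 and 503 with quantile normalization. With the replicate number as a block, unadjusted p was under 0.05 for 4 of the 5 brighter members, all but Gstm1. In that fit 702 of 18820 genes were lower and 293 higher with such a p, and the share among brighter genes was not counted. Pcyt2+/- replicates 1 and 2 have no wild type array of the same number, so the difference there comes from replicates 3 and 4 alone. Of the 10, 6 had a lower and 4 a higher mean in Pcyt2+/-, with a median difference of -0.02, beside -0.02 over the 792 genes with a mean above 5 and -0.00073 over all genes. With 1 array left out the median ran from -0.051 to 0.0038, positive without Pcyt2+/- replicate 3 or wild type replicate 3, and lower means numbered 4 to 8. The largest differences lay on opposite sides, at -0.27 for Gsta3 and 0.27 for Gstp1.

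**Figure D1:**
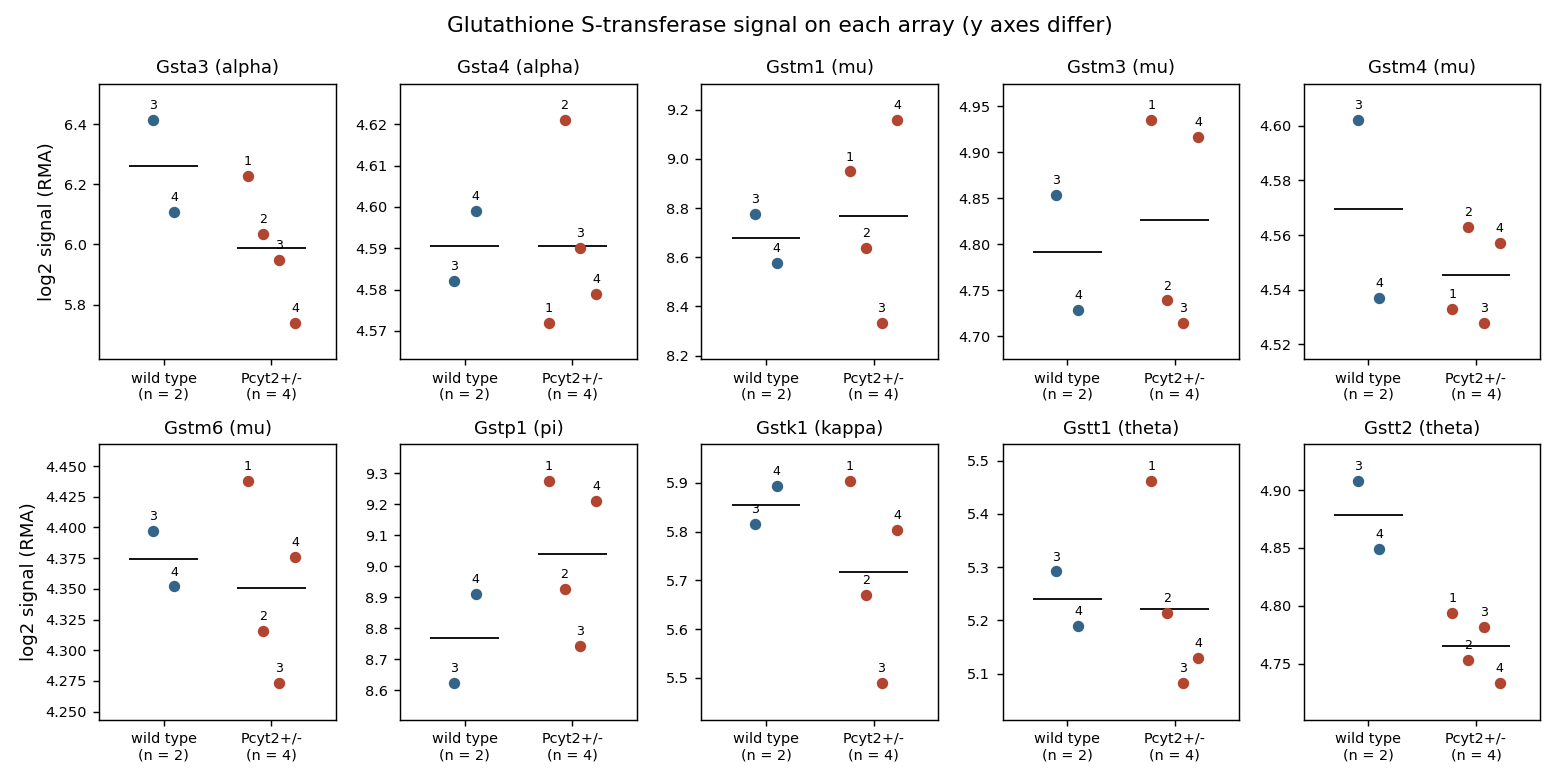
Log2 signal (y axis, a separate scale in each panel) of the 10 glutathione S-transferase genes in 2 wild type livers (blue) and 4 Pcyt2+/- livers (red); numbers beside the points are replicates and bars are group means. The groups are apart for Gstt2, where every Pcyt2+/- value lies below both wild type values, and overlap for the other 9 genes.

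The region around the transcription start is shown for 3 members, picked after their values were seen: Gsta3, with the most negative difference, Gstp1, with the most positive, and Gstm1, with the widest range over the arrays. Each run holds 250 bases before and 50 after the start, 5′ to 3′ on the gene's strand, from RefSeq on build GRCm38.p6, and capitals mark a motif found by a letter search. Gsta3 lies on the plus strand at chr1:21240335-21240634, Gstp1 on the minus strand at chr19:4037863-4038162 and Gstm1 on the minus strand at chr3:108017769-108018068.
Gsta3: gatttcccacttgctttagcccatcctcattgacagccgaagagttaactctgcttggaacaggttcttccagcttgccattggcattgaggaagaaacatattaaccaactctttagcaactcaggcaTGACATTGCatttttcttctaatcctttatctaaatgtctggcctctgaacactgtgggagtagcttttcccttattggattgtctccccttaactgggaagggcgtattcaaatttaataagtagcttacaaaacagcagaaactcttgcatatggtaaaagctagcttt
Gstp1: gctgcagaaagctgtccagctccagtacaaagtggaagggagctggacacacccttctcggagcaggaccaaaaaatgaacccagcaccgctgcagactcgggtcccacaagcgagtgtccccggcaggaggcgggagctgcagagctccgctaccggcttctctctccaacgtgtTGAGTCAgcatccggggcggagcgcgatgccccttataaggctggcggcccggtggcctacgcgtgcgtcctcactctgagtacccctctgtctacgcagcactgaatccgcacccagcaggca
Gstm1: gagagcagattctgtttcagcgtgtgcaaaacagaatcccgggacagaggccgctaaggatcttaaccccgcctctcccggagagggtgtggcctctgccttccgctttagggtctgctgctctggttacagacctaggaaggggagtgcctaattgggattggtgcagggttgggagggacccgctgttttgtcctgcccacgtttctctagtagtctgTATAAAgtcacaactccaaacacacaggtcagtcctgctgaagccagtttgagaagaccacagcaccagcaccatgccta
In Gsta3 the capitals are the core of an antioxidant response element (TGACNNNGC), the site through which NRF2 acts, beginning 121 bases before the start. In Gstp1 they are an AP-1 element (TGANTCA), 74 bases before the start, which reads as a match on both strands. In Gstm1 they are a TATA box (TATAAA), 30 bases before the start, in the 1 of its 2 listed promoters that holds one. Searched on both strands, the antioxidant core stood in 12.4% of all 32851 promoters of this length, the AP-1 element in 7.81% and the TATA box in 13.6%. In the letters searched, each motif stood in 1 of the 12 listed promoters of 8 members, that of the gene shown. In Gstp1 the AP-1 match with the bases after it reads TGAGTCAGC, which differs from the searched antioxidant core by G for C. Whether that run serves as an antioxidant response element was not tested. A match is a run of letters and not a measured binding site.

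Alpha class transferases act on products of lipid peroxidation and on activated carcinogens. Gsta3, whose enzyme detoxifies the epoxide of aflatoxin B1 in mouse liver, had the most negative difference of the 10. Probe set 10345065 read 6.228, 6.035, 5.949 and 5.740 in Pcyt2+/- replicates 1 to 4, and 6.414 and 6.108 in wild type replicates 3 and 4. Pcyt2+/- replicate 1 lay above wild type replicate 4, so the groups overlapped, and the other 3 Pcyt2+/- livers lay below both. Pcyt2+/- livers averaged 5.99 ± 0.20 (SD, n = 4) against 6.26 ± 0.22 (SD, n = 2) in wild type. The difference of -0.27 (SE 0.14) had a 95% interval of -0.60 to 0.05, which spans a signal ratio of 0.661 to 1.04. It did not pass limma (adjusted p = 0.945), and the two-sided exact permutation p was 0.267, where 4 against 2 arrays cannot go below 0.0667. The difference was -0.12 without wild type replicate 3 and -0.43 without wild type replicate 4. After linear subtraction of the median signal of each array it was -0.40. Limma draws each gene's variance toward a value common to all genes, most of which lie in the floor band. For the 5 brighter members this gave smaller SEs and narrower intervals than their own SDs alone would give.

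Gsta4 encodes the alpha enzyme with high activity toward 4-hydroxynonenal, an aldehyde from oxidised fatty acids. Its 6 values, from probe set 10587315, lay between 4.572 and 4.621, and both extremes were Pcyt2+/- livers. Pcyt2+/- livers averaged 4.591 ± 0.022 (SD, n = 4) and wild type livers 4.590 ± 0.012 (SD, n = 2). The difference of 0.00024 had a 95% interval of -0.037 to 0.038, and the gene lies close to the floor of the array.

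Among mu class enzymes, encoded by a cluster of closely related neighbouring genes, Gstm1 showed the widest range of all members. Probe set 10501229 gave 8.949, 8.637, 8.334 and 9.158 in Pcyt2+/- replicates 1 to 4, and 8.777 and 8.578 in wild type replicates 3 and 4. Both wild type values fell between the lowest and the highest Pcyt2+/- value, with replicate 3 at the bottom and replicate 4 at the top. The SD among Pcyt2+/- livers was 0.36, and 17 of the 792 genes with a mean above 5 (2.15%), Gstm1 among them, had an SD as large. The difference of 0.09 (SE 0.21) had a 95% interval of -0.41 to 0.60, a signal ratio of 0.751 to 1.51, and its adjusted p by limma was 0.996. It turned to -0.038 without Pcyt2+/- replicate 4 and to -0.0078 without wild type replicate 4.

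Gstm3, Gstm4 and Gstm6 lay in the floor band. Gstm3, by the rule of the highest mean, was read from probe set 10362511, with 4.715 to 4.935 in Pcyt2+/- and 4.729 and 4.854 in wild type, a difference of 0.03 (SE 0.073). Gstm3 belongs to the mu cluster on chromosome 3, yet the 10 nearest rows by probe set number, 5 on each side, named genes of chromosome 10. The other Gstm3 probe set, 10501218, numbered among its mu class relatives, had 9 of 10 neighbours on chromosome 3 and a difference of -0.046 (unadjusted p = 0.0580). Which of the rows reads Gstm3 was not tested, and the sign of its difference depends on that choice. Gstm4 ran from 4.528 to 4.563 in Pcyt2+/- with 4.602 and 4.537 in wild type, and Gstm6 from 4.273 to 4.438 with 4.397 and 4.352. Their differences were -0.024 for each (SE 0.020 for Gstm4 and 0.043 for Gstm6), with groups that overlapped and adjusted p of 0.956 and 0.995 by limma. Gstm4 turned to 0.0083 without wild type replicate 3 and Gstm6 to 0.0021 without Pcyt2+/- replicate 3. Over the 4 mu genes the median difference was 0.0056, with 2 lower and 2 higher means, and its sign was not stable: it was 0.053 with the wild type array 3 left out, -0.037 with array 4 of that group left out and -0.015 with the mean of each gene's rows. How far probe sets share signal between mu genes was not tested, so values of single mu genes are uncertain to that extent.

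Gstp1, the pi class enzyme, is a major transferase of mouse liver with higher levels in males, and it also binds the stress kinase JNK. It had the most positive difference of the 10. Probe set 10464583 read 9.275, 8.926, 8.744 and 9.209 in Pcyt2+/- replicates 1 to 4, and 8.623 and 8.912 in wild type replicates 3 and 4. Pcyt2+/- replicates 1, 2 and 4 lay above both wild type values, and replicate 3 lay between them. Signal averaged 9.04 ± 0.25 (SD, n = 4) in Pcyt2+/- and 8.77 ± 0.20 (SD, n = 2) in wild type, and the difference of 0.27 (SE 0.16) had a 95% interval of -0.10 to 0.65, or a signal ratio of 0.930 to 1.56. It did not pass limma (adjusted p = 0.952, exact permutation p = 0.200). Without wild type replicate 3 it was 0.13, without wild type replicate 4 it was 0.42, and the direction was the same with each array left out.

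Both further rows that name Gstp1 name Gstp2 as well and showed smaller differences. Probe set 10464586 had 0.048 (6.19 ± 0.12, SD, n = 4, against 6.14 ± 0.038, n = 2) and probe set 10361152 had 0.045 (6.64 ± 0.10 against 6.60 ± 0.055), each with an unadjusted p above 0.5 (0.517 and 0.506). Rows beside the second one named genes of chromosome 1, 10 of 10, although both Gstp1 and Gstp2 lie on chromosome 19. The sex of the mice bears on Gstp1 and its part was not tested. Of 16 measured genes in a list of sex chromosome and sex-biased liver genes, 0 passed limma over all genes (median 0.0015). In that list 1 gene was higher with an unadjusted p under 0.05, where 1.86% of all genes were. That gene was Hsd3b5, a male-biased steroid enzyme, with 5.105 to 5.282 in Pcyt2+/- and 4.914 and 5.050 in wild type (difference 0.17, and 0.11 without wild type replicate 3). The male-biased genes Elovl3 and Slco1a1 had -0.36 and -0.11, and both turned positive without wild type replicate 4 (0.088 and 0.043).

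**Figure D2:**
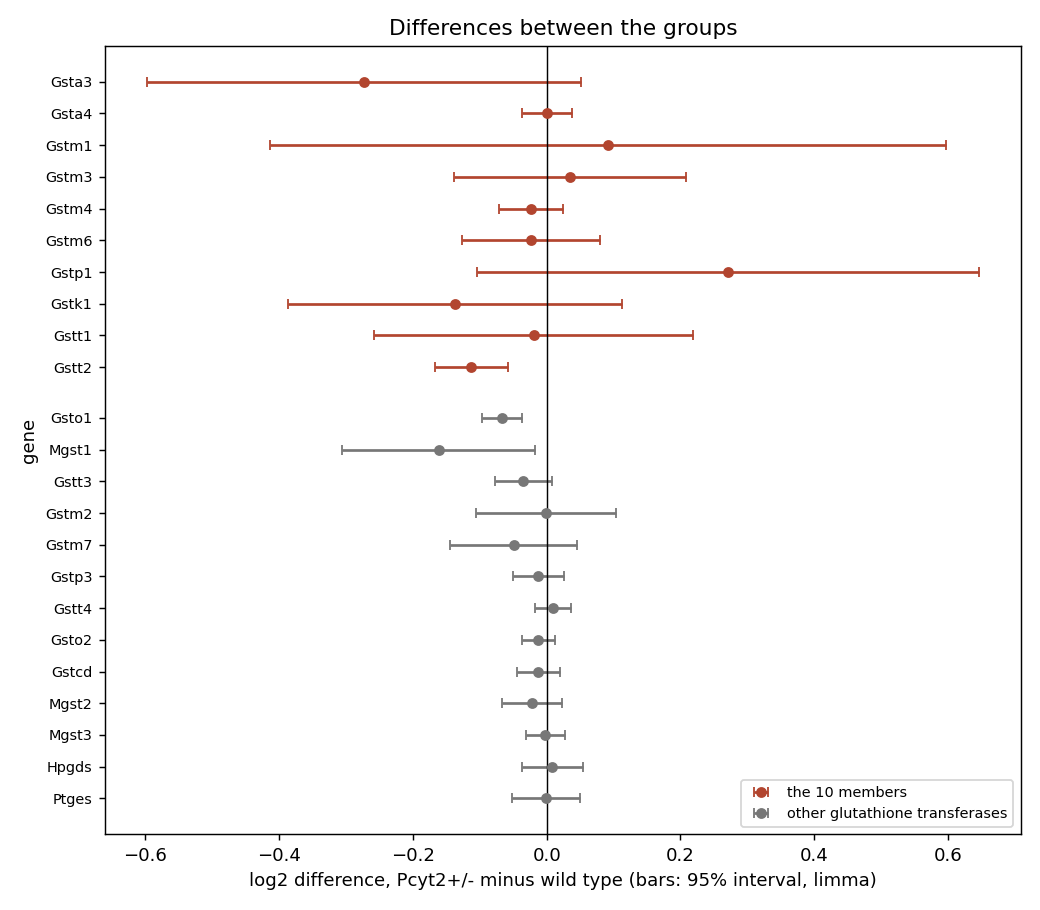
Log2 difference between the groups (x axis, Pcyt2+/- minus wild type) for the 10 members (red) and 13 other measured glutathione transferase genes (grey), with 95% intervals from limma on 4 and 2 arrays. The intervals of Gstt2, Gsto1 and Mgst1 lie below 0 before any adjustment for the number of genes tested, and those of the other 20 genes include 0.

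Gstk1 encodes the kappa class enzyme of mitochondria and peroxisomes, which is also known for its part in the assembly of adiponectin. Its values, from probe set 10537712, were 5.904, 5.670, 5.489 and 5.804 in Pcyt2+/- replicates 1 to 4, with 5.815 and 5.893 in wild type replicates 3 and 4. Replicates 2, 3 and 4 of Pcyt2+/- lay below both wild type livers and replicate 1 lay above both. A difference of -0.14 (SE 0.10, 95% interval -0.39 to 0.11) separated means of 5.72 ± 0.18 (SD, n = 4) and 5.85 ± 0.055 (SD, n = 2), with an adjusted p of 0.956 by limma. It was -0.061 without Pcyt2+/- replicate 3, and -0.23 after linear subtraction of the median signal of each array.

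Theta class transferases work on small halogenated compounds and organic peroxides, and Gstt1 and Gstt2 are neighbours in 1 gene cluster. Gstt2 was the member whose groups stood apart. Probe set 10370013 gave 4.794, 4.753, 4.782 and 4.733 in Pcyt2+/- replicates 1 to 4, and 4.908 and 4.849 in wild type replicates 3 and 4. Every Pcyt2+/- value was below both wild type values, with means of 4.77 ± 0.028 (SD, n = 4) and 4.88 ± 0.042 (SD, n = 2). The difference of -0.11 (SE 0.023) had a 95% interval of -0.17 to -0.06. Its unadjusted p by limma was 0.00184 and its adjusted p over all genes 0.511, so it did not pass, and the exact permutation p was 0.0667, the smallest possible here. Gstt2 lies in the floor band, and after subtracting the median signal of each array the difference was -0.45 (adjusted p = 0.326). Leaving out single arrays gave -0.14 to -0.083.

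Gstt1, which acts on dihalomethanes, had 5.462, 5.214, 5.082 and 5.130 in Pcyt2+/- replicates 1 to 4 and 5.292 and 5.190 in wild type replicates 3 and 4 (probe set 10370000). Both wild type livers lay inside the Pcyt2+/- range, which replicate 1 extended upward. The difference of -0.019 (SE 0.10) had a 95% interval of -0.26 to 0.22 and an adjusted p of 0.997 by limma. It turned positive without Pcyt2+/- replicate 3 (0.027), Pcyt2+/- replicate 4 (0.011) or wild type replicate 3 (0.031). After linear subtraction of the median signal of each array it was -0.063.

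For 9 of the 10 members, all but Gstt2, the range within the Pcyt2+/- group exceeded the difference between the group means. The share of all genes for which this holds was not counted, so it cannot be read as a trait of the transferases. Pcyt2+/- replicate 3 had the lowest value for 6 of the 10 members (Gstm1, Gstm3, Gstm4, Gstm6, Gstk1 and Gstt1), where 18.2% of all genes were lowest there. These include all 4 mu genes, and how far their probe sets share signal was not tested. Of the 5 brighter members 3 were lowest in replicate 3, beside 42.8% of the 792 genes with a mean above 5, so the low position of that array was shared by many brighter genes. Replicate 1 had the highest value for 5 of the 10 members, against 13.8% of all genes, and for 3 of the 5 brighter ones, against 22.4% of the 792. Relative to each gene's own mean over the 6 arrays, the brighter members had a median deviation of -0.20 in replicate 3, against -0.055 for all genes with a mean above 5. In replicate 1 the same medians were 0.21 and 0.021. Gsta3 departed from Gstm1 and Gstp1 in Pcyt2+/- replicate 4, with -0.34 against 0.42 and 0.26, and from Gstp1 in wild type replicate 3, with 0.34 against -0.33. Without replicate 3 the differences were 0.24 for Gstm1 and 0.37 for Gstp1 (adjusted p = 0.957 and 0.858).

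**Figure D3:**
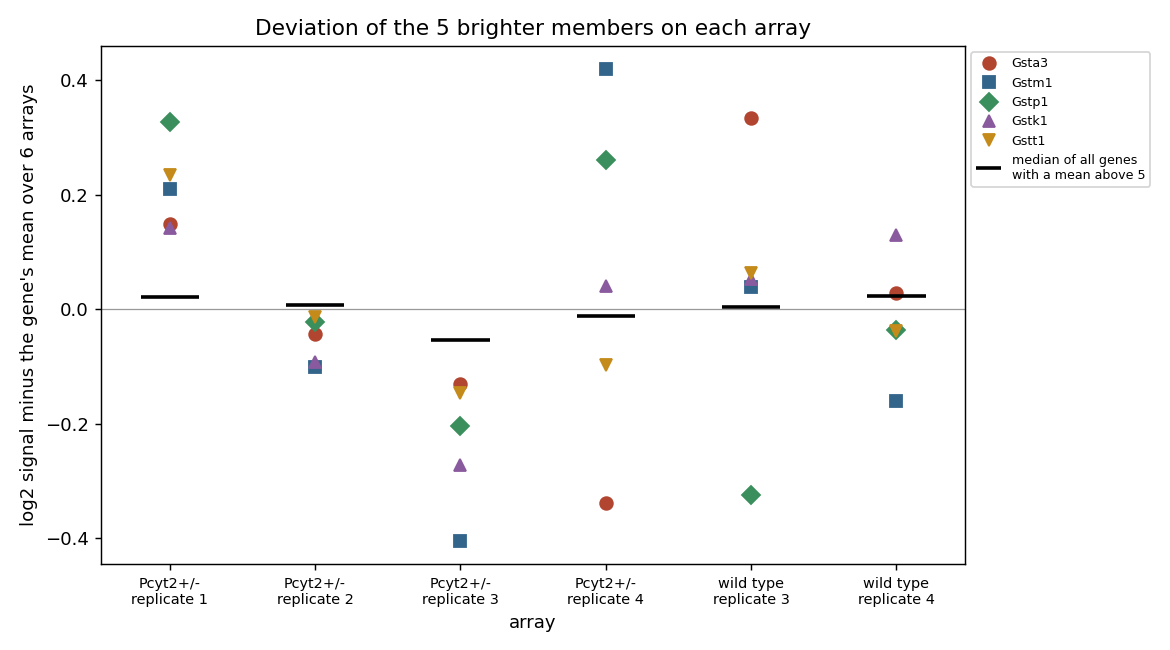
Log2 signal of the 5 brighter members on each array, as the deviation from the gene's own mean over 6 arrays (y axis); black bars are the median deviation of all 792 genes with a mean above 5. All 5 members lie above 0 in Pcyt2+/- replicate 1 and below 0 in replicate 3, and they spread from -0.34 to 0.42 in replicate 4.

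Transferases outside the 10 did not pass the test. Of 13 further measured genes, 0 passed limma over all genes, 11 had a lower and 2 a higher mean, and the median was -0.012. With an unadjusted p under 0.05, 2 were lower and 0 higher. Over all genes 51.9% had a lower mean, and 3.44% were lower with such a p. Of the 13, 11 had a mean of at most 4.6, close to the floor. Mgst1, the microsomal transferase of the endoplasmic reticulum and outer mitochondrial membrane, was the 1 of the 13 with a mean above 5. It read 8.500, 8.500, 8.293 and 8.459 in Pcyt2+/- replicates 1 to 4 and 8.643 and 8.557 in wild type, a difference of -0.16 (SE 0.061, adjusted p = 0.913). All 4 Pcyt2+/- values lay below both wild type values, by least for replicates 1 and 2. Gsto1, an omega class enzyme that reduces dehydroascorbate, had 4.489 to 4.521 against 4.564 and 4.582, a difference of -0.067 (adjusted p = 0.487). Gstt3, of the theta cluster, had -0.035 (-0.021 without wild type replicate 3) with groups that overlapped. Rows naming Gsta1 and Gsta2 together with related genes differed by -0.026 to -0.011, and Gstz1 together with Pomt2 by -0.031, and none of these was assigned to a single gene.

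Genes that make and recycle glutathione did not pass either. Of 24 measured, 0 passed limma over all genes, with a median of -0.0061. With an unadjusted p under 0.05, 4 were lower and 1 higher. Over all genes 3.44% were lower and 1.86% higher with such a p. Of the 24, 8 had a mean above 5, and 20.2% of all genes with such a mean had an unadjusted p under 0.05. Gclc, the catalytic subunit of the rate-limiting ligase of glutathione synthesis, had 5.553 to 5.631 in Pcyt2+/- and 5.435 and 5.379 in wild type. Its difference of 0.17 (SE 0.026, adjusted p = 0.310) came with no overlap between the groups. Cth, which supplies cysteine, stood on the other side with 4.998 to 5.172 against 5.281 and 5.271, a difference of -0.23 (adjusted p = 0.549). Glrx, a glutaredoxin, had -0.10, and -0.034 without wild type replicate 4.

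Downstream of conjugation, 22 genes of conjugate export and mercapturic acid formation were measured, and 0 passed limma over all genes (median -0.0022). With an unadjusted p under 0.05, 1 was lower and 1 higher, where 3.44% and 1.86% of all genes were. Abcc2, the canalicular pump for glutathione conjugates, had 5.556 to 5.612 against 5.742 and 5.617, a difference of -0.091 that was -0.029 without wild type replicate 3. Cndp2, a dipeptidase that splits cysteinylglycine, had 0.041 with no overlap. Abcc4, a basolateral pump, had -0.024 (-0.013 without wild type replicate 3).

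Regulators and targets that share control with transferases were counted in the same way. Over all genes 3.44% were lower and 1.86% higher with an unadjusted p under 0.05. Among all genes with a mean above 5, 20.2% had such a p. In the NRF2 system outside glutathione, 0 of 28 passed limma over all genes (median -0.0081, 3 lower and 2 higher with an unadjusted p under 0.05). Osgin1, an NRF2-responsive gene, had 6.915, 5.968, 6.210 and 5.809 against 5.438 and 5.494, a difference of 0.76 (adjusted p = 0.901) that was 0.53 without Pcyt2+/- replicate 1. Ugdh, which makes UDP-glucuronate, had -0.12 (-0.055 without wild type replicate 4), and Me1, the cytosolic malic enzyme, -0.039 (-0.022 without wild type replicate 4). In the system of CAR, PXR and AHR, the receptors that sense foreign compounds, 0 of 20 passed limma over all genes (median -0.0028, 2 lower and 1 higher with an unadjusted p under 0.05). Aldh1a1, a retinaldehyde dehydrogenase, had -0.39 (-0.26 without wild type replicate 3; adjusted p = 0.784), Cyp2c29, a P450, 0.24 (0.12 without wild type replicate 4; adjusted p = 0.817), and Cyp3a13, another P450, -0.12 (-0.056 without wild type replicate 4).

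**Figure D4:**
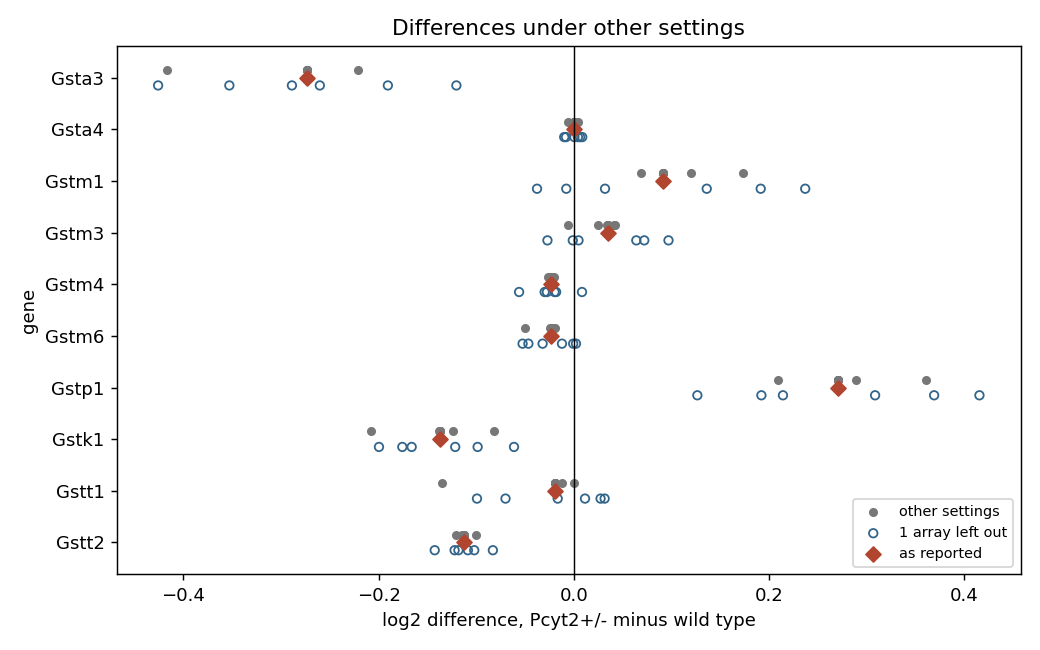
Log2 difference of each member (x axis, Pcyt2+/- minus wild type) as reported (red diamonds), with 1 array left out (open circles) and under other settings without floor subtraction (grey). Gsta3, Gstk1 and Gstt2 stay below 0 and Gstp1 above 0 in every fit drawn, while the other 6 members cross 0.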

How the data were processed

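Total RNA from liver of 6 mice was labelled with biotin from 100 ng for Affymetrix arrays, per the labels' protocols. The authors deposited log2 values per probe set from RMA, a step named per the submitters' processing notes. The RMA version and genome build are not given in the sources used here. Of 28996 rows, 21218 had 1 gene symbol in the platform annotation, 1881 several, and 5897 were unnamed here; 21185 were found by gene identifier in RefSeq's GRCm38.p6 table, with 0 symbols altered. Each of 18820 genes was read from its row of highest mean.

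Pcyt2+/- was compared with wild type by limma 3.58.1 in R 4.3.3 (lmFit and default eBayes, two-sided, without covariates), with Benjamini-Hochberg adjustment over all genes and a threshold of 0.05. The variance common to all genes was 0.00026, with a weight of 2.8 degrees of freedom beside 4 of the gene's own. Single genes were also tested by exact permutation (two-sided, 15 splits). The fit was tested on simulated data. Other steps used Python 3.11.15, numpy 2.4.6, pandas 2.3.3 and matplotlib 3.10.9. For arrays, their number limits the precision.

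The members and lists were chosen with earlier results of these data known. Named genes were the members, Pcyt2, and per pathway or state list (not cell type markers) those that passed or else up to 3 with the smallest unadjusted p, other transferases with a mean above 5, and the 3 genes nearest in profile to the member with the widest range. The remaining transferases, Alb, Ttr, Apoa1 and the sex chromosome genes served as checks. Lists covered other transferases, glutathione synthesis and redox, conjugate export, the NRF2 system, CAR, PXR and AHR, pericentral and periportal hepatocytes, sex, and markers of hepatocytes and 9 other cell types.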

Additional observations from a re-analysis of the deposited data

Results flagged for a closer look

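In the 4 Pcyt2+/- livers, 1 value stood far from the other 3 for 3 of 38 genes checked, none of them among the 10 transferases; chance alone sets about 1 in 20 such groups apart. Cth had 5.172 in Pcyt2+/- replicate 1, above the other 3. Hsd3b5 had 5.282 in the same liver, also above the others. Cyp2c29 had 8.094 in Pcyt2+/- replicate 3, the array on which most transferases were lowest, and lay above the others there.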

How the results depend on the processing

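No member passed under any setting fitted, and the lowest adjusted p of a member was 0.261, for Gsta3 with the replicate block. Gsta3, Gstp1, Gstk1 and Gstt2 had the same direction in every fit they entered (ranges -0.43 to -0.12, 0.13 to 0.42, -0.23 to -0.061 and -0.45 to -0.083). Rows that name Gstp1 together with Gstp2, looked at after seeing the data, gave 0.048 and 0.045. Over all genes limma called 0, but 3 when 792 genes with a mean above 5 entered, 9 with a trended and robust prior, 3 with the floor subtracted (3248 genes) and 0 to 9 with 1 array left out. Fits without a wild type array assume that the remaining one varies like the Pcyt2+/- arrays. Signs turned for Gstm3 with the mean of its rows (-0.0056) and with its other row (-0.046), a setting chosen after seeing the data, and for Gsta4 with median centring (-0.00024). With 1 array left out the ranges were -0.038 to 0.24 for Gstm1, -0.027 to 0.097 for Gstm3, -0.056 to 0.0083 for Gstm4, -0.053 to 0.0021 for Gstm6, -0.099 to 0.031 for Gstt1 and -0.0099 to 0.0085 for Gsta4. The theta median was -0.26 with the floor subtracted, which stretches values near the floor. Quantile normalization gave 492 lower and 503 higher genes with unadjusted p under 0.05, against 648 and 350 as deposited. Replicates 3 and 4 occur in both groups, but nothing in the labels says that a number pairs mice. Deviations from the group means correlated at 0.15 for replicates 3 and 0.073 for replicates 4, but at 0.19 for Pcyt2+/- replicate 1 with wild type replicate 4, and with 2 wild type arrays each value recurs with the opposite sign by construction. With the number as a block limma called 2 genes. In that fit 5 members had an unadjusted p under 0.05 (Gsta3, Gstp1, Gstk1, Gstt1 and Gstt2) against 1 without it. So did 702 lower and 293 higher of 18820 genes, and the share among genes with a mean above 5 was not counted. Pcyt2+/- replicates 1 and 2 have no wild type array of the same number, so the block fit draws the difference from replicates 3 and 4 alone. Gsta3 then had -0.42, Gstt1 -0.14, and Gsta4 turned to -0.0059. The causes of these shifts were not tested beyond what each setting does by construction.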

Other observations

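The profile most like that of Gstm1 over the 6 arrays, among 786 other genes with a mean above 5, was that of Cpn1, a subunit of carboxypeptidase N, with a mean absolute distance of 0.128 between centred log2 profiles. Chchd10, a mitochondrial protein, followed with 0.132, and Cideb, which acts in lipoprotein lipidation, with 0.133. Genes were ranked by closeness to Gstm1, so a low point shared with it follows largely from the choice. Over the 6 arrays, 42.8% of the 792 genes with a mean above 5 were lowest in Pcyt2+/- replicate 3. All 3 nearest genes had their lowest Pcyt2+/- value in replicate 3 (7.883, 6.365 and 8.510), as Gstm1 did. They differed between the groups by 0.10, -0.12 and 0.15. With 1 array left out these differences ran from 0.040 to 0.20, from -0.19 to -0.035 and from 0.080 to 0.22.

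Genes of liver zones were listed because drug metabolism differs between zones. Beside the counts below, 3.44% of all genes were lower and 1.86% higher with an unadjusted p under 0.05. Among all genes with a mean above 5, 20.2% had such a p. Of 14 measured pericentral genes 0 passed limma over all genes, with a median of -0.012 and 2 lower and 0 higher with an unadjusted p under 0.05. Oat, an aminotransferase around the central vein, had -0.36 with no overlap, Slc1a2, a glutamate transporter, -0.061 (-0.019 without wild type replicate 3), and Cyp1a2, a P450, 0.20 (0.056 without wild type replicate 4). Of 10 periportal genes 0 passed, with a median of -0.027 and 2 lower and 1 higher with an unadjusted p under 0.05. Arg1, of the urea cycle, had -0.79 (adjusted p = 0.130), Hsd17b13, a lipid droplet protein, -0.14 (adjusted p = 0.219) and Cyp2f2, a P450, 0.21. Hepatocyte markers had a lower mean in 7 of 8 cases (median -0.051, 0 called), where 62.4% of all genes with a mean above 5 were lower. Of the 8, 1 had an unadjusted p under 0.05, Cps1, of the urea cycle, at -0.56 (adjusted p = 0.529 by limma), a gene named after its values were seen. The medians of the 9 other cell type lists lay between -0.0061 and 0.0078.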
